A study of Mus musculus with 10 samples.

Results

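The proteasome is the large protease that degrades proteins marked with ubiquitin, and its genes were followed here in mouse embryonic stem (ES) cells that lost the acetyltransferase Mof or were exposed to etomoxir. Members were chosen by name: every row of the deposited gene table whose name holds a symbol of the families Psma to Psmg, pseudogenes left out. This gave 55 of the 50273 rows, which stand for 50 genes. The 10 libraries form 5 groups of 2, which the submitters describe as biological duplicates. KO and WT are C57BL/6J cells with the alleles Mof fl/fl and Cre-ER TM, labelled Mof-KO and wild type. The protocol for these cells names ethanol or 100 nM 4-hydroxytamoxifen for 3 days, and the labels do not say which group received which. Both groups carry the floxed alleles and the inducible Cre, and no group had Cre activated with Mof intact, so Mof loss and the activation of Cre cannot be told apart. Released, ETO and Control are E14tg2a cells, a male mouse ES line: ETO received etomoxir, an inhibitor of fatty acid oxidation, for 4 days, Released was then kept for 4 more days without it, and Control received water. All groups were grown in 2i/LIF, the medium with PD0325901, CHIR99021 and LIF that holds ES cells in the naive state. No water group kept as long as Released is among the samples.

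As background, the core particle of the proteasome (20S) is a barrel of alpha subunits (Psma) around beta subunits (Psmb), and only Psmb5, Psmb6 and Psmb7 carry protease sites in the constitutive form. In immune cells and after interferon these are replaced by Psmb8, Psmb9 and Psmb10, which makes the immunoproteasome. The regulatory particle (19S) has ATPases that unfold the substrate (Psmc) and further subunits that bind ubiquitin or remove it (Psmd). Psme proteins are other caps of the barrel, and Psmg proteins with Psmd5, Psmd9 and Psmd10 are chaperones of assembly. The transcription factor Nfe2l1 (NRF1) is known to drive constitutive subunit genes together when proteasome activity falls, and NF-Y, which binds CCAAT boxes, has been linked to the basal expression of several of them. ES cells are known for high proteasome activity.

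The stretches before the annotated start of 4 genes are shown as examples: Psma1 for the core subunits that were lower in ETO, Psmb5 and Psmb6 for the constitutive protease sites, and Psmb10 for the immunoproteasome subunit that was lower in KO. Psmb7, the protease site with the lowest log2 change in ETO (-0.76), is not shown, and Psmb5 had the smallest change (-0.24). They come from RefSeq promoter tables of the build GRCm38.p6, leave out bases in annotated exons, and run 5′ to 3′ on the strand of the gene. Capitals mark CCAAT (or its complement ATTGG) and the antioxidant response core TGACNNNGC, the type of site that Nfe2l1 and its relative Nfe2l2 bind.
Psma1, chr7:114276119-114276366, minus strand: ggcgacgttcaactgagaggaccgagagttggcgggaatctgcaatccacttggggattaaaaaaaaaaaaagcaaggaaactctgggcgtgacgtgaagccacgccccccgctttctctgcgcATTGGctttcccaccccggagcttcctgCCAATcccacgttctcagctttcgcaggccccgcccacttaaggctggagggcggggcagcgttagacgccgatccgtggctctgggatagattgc
Psmb5, chr14:54618023-54618245, minus strand: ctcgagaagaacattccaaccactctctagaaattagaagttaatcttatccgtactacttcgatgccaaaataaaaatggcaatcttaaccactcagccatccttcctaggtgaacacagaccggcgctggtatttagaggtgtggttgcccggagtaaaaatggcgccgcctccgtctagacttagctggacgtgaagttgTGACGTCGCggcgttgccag
Psmb6, chr11:70525107-70525356, plus strand: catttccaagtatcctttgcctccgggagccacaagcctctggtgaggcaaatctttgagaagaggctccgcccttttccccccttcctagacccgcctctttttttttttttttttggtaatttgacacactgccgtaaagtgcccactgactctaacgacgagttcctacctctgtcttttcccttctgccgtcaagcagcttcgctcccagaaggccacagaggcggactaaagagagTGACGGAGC
Psmb10, chr8:105938445-105938642, minus strand: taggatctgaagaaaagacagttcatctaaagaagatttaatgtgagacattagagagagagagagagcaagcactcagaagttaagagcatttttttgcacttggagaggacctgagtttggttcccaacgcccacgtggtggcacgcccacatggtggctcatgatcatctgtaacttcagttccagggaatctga
Psma1 held 2 CCAAT matches, Psmb5 and Psmb6 held 1 match of TGACNNNGC each, and the stretch of Psmb10 held neither. Over 250 bases before the start and on both strands, TGACNNNGC was found in 5 of the 45 member promoters in the table (11.1%), against 10.2% of all 32851 promoters. Psmb5 and Psmb6 are among these 5, so the examples shown do not stand for the members in this respect. CCAAT was found in 15 of 45 (33.3%), against 33.8% of all. The member promoters belonged to 42 of the 50 genes. A match is a description of letters and not a binding site.

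Most proteasome transcripts were lower in ETO than in Control, in the core and in the regulatory particle. Of the 48 genes tested, 42 fell and 1 rose (limma on the log2 of the normalised count plus a pseudocount of 1, two-sided, Benjamini-Hochberg adjusted p under 0.05 over 16056 genes), where 34% of all tested genes fell and 26.8% rose. The 1 rise was that of Psmb9, which passed the filter on low values through ETO and Released libraries alone, so that its call is no test. The median log2 change of the members was -0.60, against -0.09 for all tested genes. For 46 of the 48 members both ETO libraries lay beyond both Control libraries on one side, which held for 81.6% of all tested genes. The 5 members that passed no threshold were Psmd5, Psmd8, Psme4, Psmf1 and Psmg4. Together the 49 members that are proteasome genes (all but Psmc3ip) made up 0.581% and 0.574% of all normalised counts in the ETO libraries, against 0.717% and 0.727% in the Control libraries. The ES cell markers, a list of 10 genes from Pou5f1 to Utf1, also fell in ETO, 10 of 10 with a median log2 change of -0.77, and their part in the proteasome values was not tested. In bulk RNA, fewer cells of a type and less RNA per cell cannot be told apart.

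**Figure D1:**
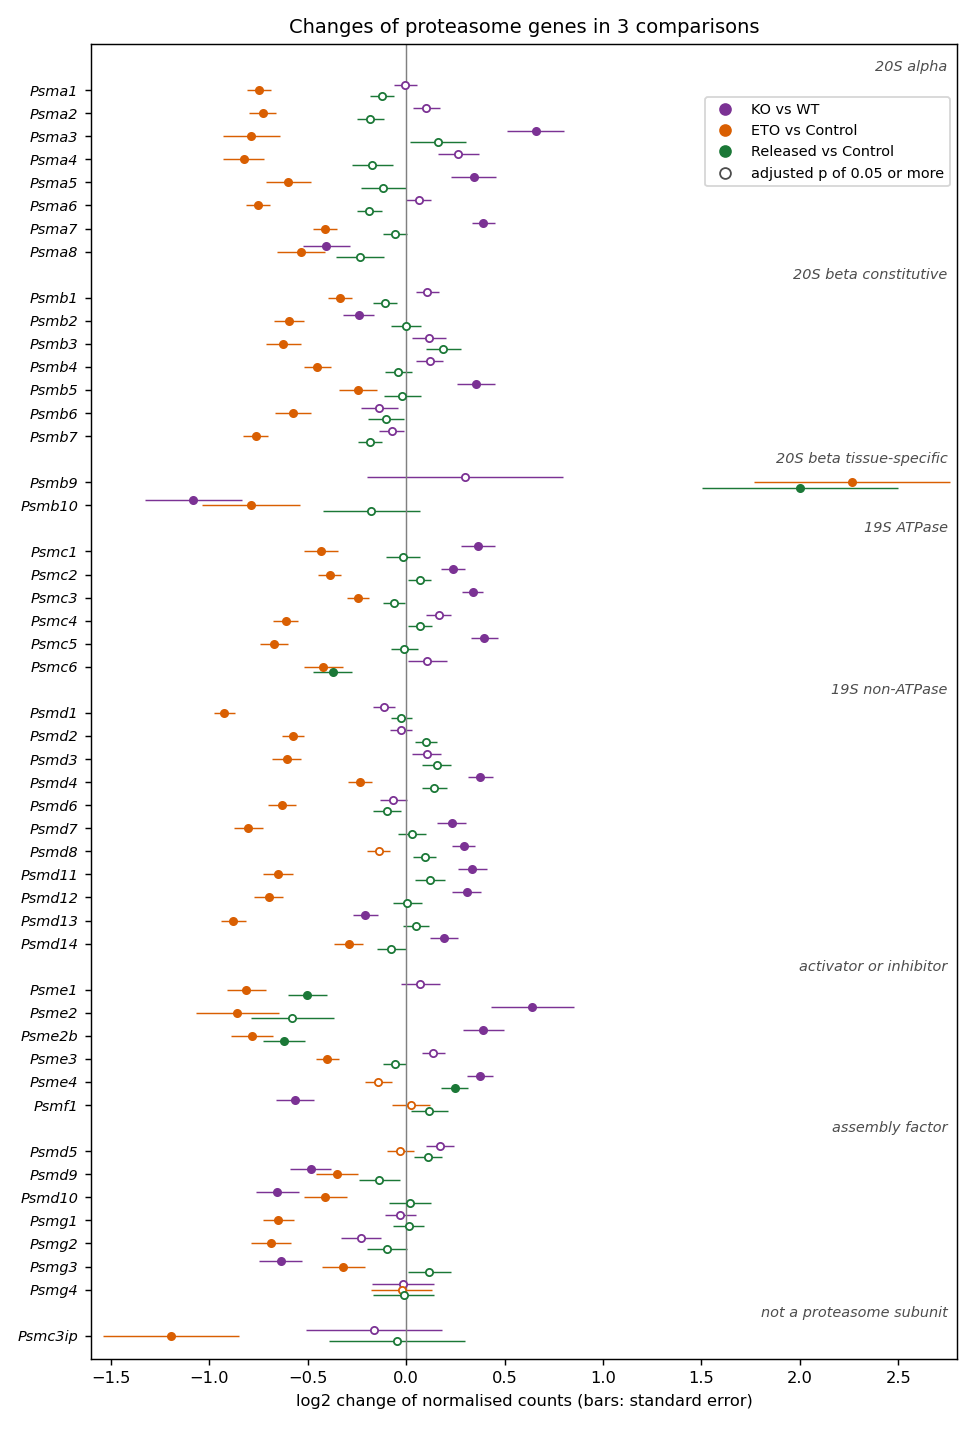
Log2 change of each tested gene (horizontal axis, bars are standard errors) in KO against WT, ETO against Control and Released against Control, grouped by role from top to bottom. Orange points for ETO lie left of 0 for nearly all genes, at a median of -0.60, while the green points for Released lie near 0, at a median of -0.02.

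All 8 alpha subunits fell in ETO, by log2 changes between -0.82 and -0.41. Psma1, a subunit of the outer ring, had 2025 and 1888 normalised counts in ETO, against 3271 and 3296 in Control (log2 change -0.75 ± 0.06 SE, adjusted p = 3.39e-08). Psma6 had 1756 and 1616 in ETO and 2842 and 2829 in Control (log2 change -0.75 ± 0.06 SE, adjusted p = 5.34e-08), and both ETO libraries were below every Released, Control and floxed-line library for these genes. Psma4 had the lowest log2 change of the ring, with 857 and 793 in ETO against 1349.5 and 1582 in Control (log2 change -0.82 ± 0.10 SE, adjusted p = 5.3e-06). Psma8, the alpha subunit known from the testis proteasome, had 213 and 174 in ETO and 265 and 294 in Control (log2 change -0.53 ± 0.12 SE, adjusted p = 0.00123). Of 5 germ cell markers, 3 rose in ETO (Dazl, 0.91, Sycp3, 1.21, and Ddx4, 0.54, a call lost without Control replicate 2 or ETO replicate 2) and 0 fell, where 26.8% of all tested genes rose and 34% fell.

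All 7 constitutive beta subunits fell as well, by log2 changes between -0.76 and -0.24. Psmb7, the trypsin-like protease site, had 1302 and 1324 in ETO, against 2323 and 2142 in Control (log2 change -0.76 ± 0.06 SE, adjusted p = 4.44e-08). Psmb6, the caspase-like site, had 1278 and 1415 in ETO and 1787 and 2250.1 in Control (log2 change -0.58 ± 0.09 SE, adjusted p = 5.83e-05), so that the ETO libraries lay below both Control libraries. The pseudogene row Psmb6-ps2 held between 385 and 706 normalised counts in the 10 libraries, and reads of Psmb6 may have been shared with it. Psmb2, a structural subunit, had 1576 and 1498 in ETO and 2340.2 and 2298 in Control (log2 change -0.59 ± 0.08 SE, adjusted p = 7.94e-06). Psmb5, the chymotrypsin-like site, stands in a row merged with Mir686 and had the smallest change of these: 221 and 246 in ETO, against 271 and 282 in Control (log2 change -0.24 ± 0.10 SE, adjusted p = 0.0379). Its call was lost under each of 3 other scalings of the libraries and when either Control library, ETO replicate 1 or either Released library was left out, with changes that stayed negative.

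In the regulatory particle 6 of 6 ATPases and 10 of 11 other subunits fell in ETO. Psmd1, the largest subunit of the base, had the lowest log2 change of all proteasome subunits: 3031 and 2967 in ETO, against 5592 and 5776 in Control (log2 change -0.92 ± 0.05 SE, adjusted p = 1.29e-09), in a row merged with Armc9 and Gm21972. Psmd13, a lid subunit, had 961 and 901 in ETO and 1698 and 1722 in Control (log2 change -0.88 ± 0.06 SE, adjusted p = 1.28e-08), and Psmd7, the partner of the deubiquitinase in the lid, had 1719 and 1791 in ETO and 3076 and 3038 in Control (log2 change -0.80 ± 0.07 SE, adjusted p = 1.55e-07). Among the ATPases, Psmc5 had 1862 and 1837 in ETO against 2861 and 3031 in Control (log2 change -0.67 ± 0.07 SE, adjusted p = 6.16e-07), and Psmc4 had 1958 and 2087 in ETO against 3148 and 3027 in Control (log2 change -0.61 ± 0.06 SE, adjusted p = 6.61e-07). The deubiquitinase of the lid itself, Psmd14, changed by -0.29, and the ubiquitin receptor Psmd4 by -0.23. The call of Psmd4 was lost under the 3 other scalings and without ETO replicate 1. Psmd8 was not called (log2 change -0.14 ± 0.06 SE, adjusted p = 0.0535).

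The caps and the assembly factors were more uneven. Psme1 and Psme2 form the interferon-inducible cap PA28 alpha/beta: Psme1 had 250.1 and 228 in ETO against 411 and 429.7 in Control (log2 change -0.81 ± 0.10 SE, adjusted p = 3.72e-06), and Psme2 had 39.5 and 37.4 in ETO against 69.3 and 71.6 in Control (log2 change -0.86 ± 0.21 SE, adjusted p = 0.00236). With FPKM values the change of Psme2 was -0.01 (adjusted p = 0.988). The row of Psme2b, a copy of Psme2 that is merged with 9930111J21Rik1 and can share its reads, changed by -0.78. Psme3, the nuclear cap PA28 gamma in a row merged with Aoc2, had 2425 and 2513 in ETO and 3346 and 3173 in Control (log2 change -0.40 ± 0.06 SE, adjusted p = 2.02e-05). Psme4, the cap PA200, was not called (log2 change -0.14 ± 0.07 SE, adjusted p = 0.0818), and neither was the inhibitor Psmf1 (log2 change 0.03 ± 0.09 SE, adjusted p = 0.836), whose groups overlapped. Among 7 assembly factors 5 fell, with Psmg1 at 485 and 523 in ETO against 787 and 794 in Control (log2 change -0.65 ± 0.08 SE, adjusted p = 3.52e-06) and its partner Psmg2 at 338 and 299 in ETO against 540.5 and 485 in Control (log2 change -0.69 ± 0.10 SE, adjusted p = 3.05e-05). The falls of Psmg1 and Psmg2 held under all 4 scalings; those of Psmg3, Psmd9 and Psmd10 did not. Psmg4 (-0.02) and Psmd5 (-0.03) were not called. The rule also holds Psmc3ip, a factor of meiotic recombination that is no proteasome subunit, which had 308 and 179 in ETO and 589 and 492 in Control (log2 change -1.19 ± 0.35 SE, adjusted p = 0.0235). Its call was lost without either WT library or without Control replicate 1.

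Fewer members were called lower in ETO under other scalings of the libraries. The median member lay below the median of all genes by 0.50 on the log2 scale with the deposited values. Median-of-ratios, TMM and total-signal factors can hardly move this gap, since 1 factor per library shifts all genes alike. The scaling itself moved the median of all genes by up to 0.16, and the share of rising genes among all calls was 44.1% in the deposited scaling and became 51.8% under median-of-ratios, 50.2% under TMM and 57.0% under total-signal scaling. Between 35 and 39 members fell under the other scalings, and 37 in the FPKM table, where Psma3, Psmb1, Psmb5, Psmd4, Psmd9 and Psme2 were not called.

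**Figure D2:**
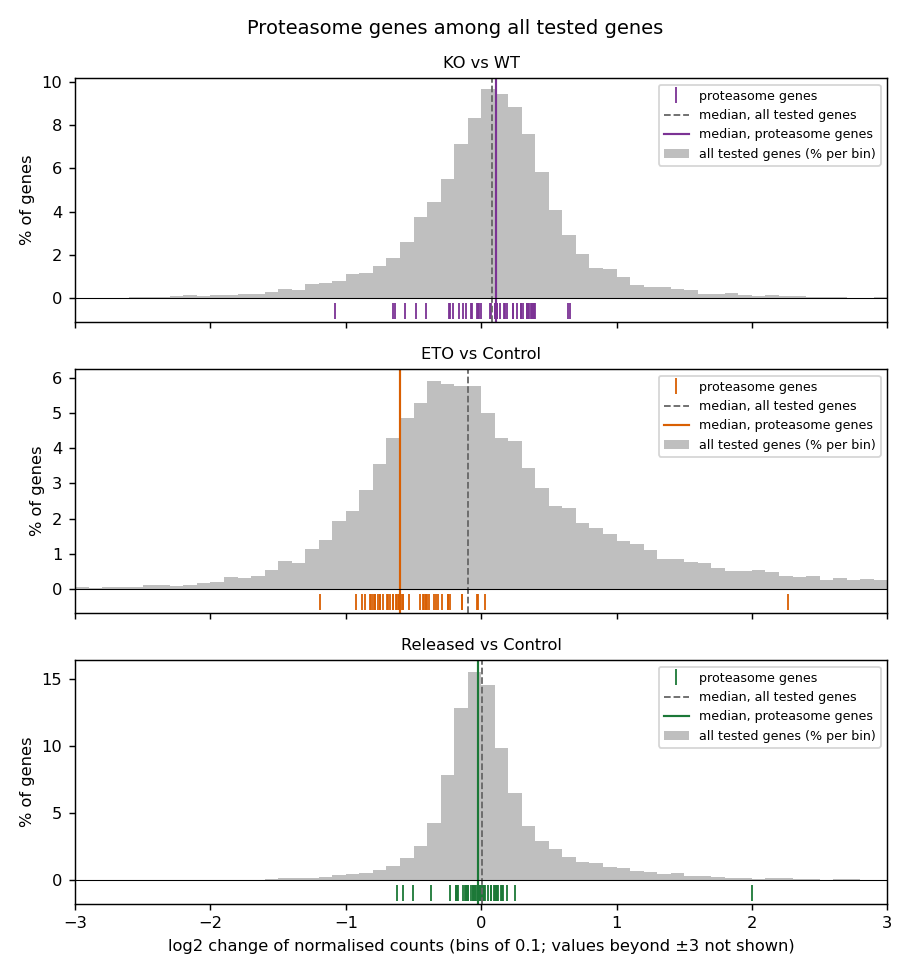
Histograms of the log2 changes of all 16056 tested genes (grey, percent of genes per bin) with each proteasome gene as a tick below, for KO against WT, ETO against Control and Released against Control. In the ETO panel the solid median line of the proteasome genes stands at -0.60 and the dashed line of all genes at -0.09, and in the Released panel the lines stand at -0.02 and 0.01.

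After etomoxir was withdrawn, transcripts of the proteasome stood above the ETO level and near that of Control. In Released against ETO 39 of 48 members rose and 0 fell, where 33.1% of all tested genes rose and 24.6% fell, with a median log2 change of 0.47 for the members and 0.10 for all genes. The groups did not overlap for 44 members and for 81% of all tested genes. This comparison shares the ETO libraries with the one above, so the values are given side by side and are not independent of it. With FPKM values 34 members rose and 1 fell, Psmb9. All 8 alpha subunits, 6 of 7 constitutive beta subunits, 5 of 6 ATPases and 11 of 11 other 19S subunits rose. The share of proteasome genes among all normalised counts was 0.749% and 0.738% in Released, above both ETO libraries. Psmd1 had 5579 and 5603 normalised counts in Released (log2 change 0.90 ± 0.05 SE, adjusted p = 2.26e-09), Psmd13 had 1767 and 1775 (log2 change 0.93 ± 0.06 SE, adjusted p = 8.54e-09) and Psma1 had 2974 and 3063 (log2 change 0.63 ± 0.06 SE, adjusted p = 2.98e-07). Psma6 had 2437 and 2546 in Released (log2 change 0.56 ± 0.06 SE, adjusted p = 1.5e-06), and Psma3, the alpha subunit with the largest change, had 251 and 244 in Released against 145 and 112 in ETO (log2 change 0.95 ± 0.14 SE, adjusted p = 3.88e-05). Psmb3, a structural beta subunit, had 649 and 654 in Released against 375 and 366 in ETO (log2 change 0.81 ± 0.09 SE, adjusted p = 1.24e-06), and Psmb7 had 1944 and 1985 in Released (log2 change 0.58 ± 0.06 SE, adjusted p = 1.09e-06). The members not called included Psmc6 (0.05), Psme2 (0.28), the Psme2b row (0.16), Psmf1 (0.09) and Psmb5 (0.23), together with Psmb9, Psmd5, Psmd9 and Psmg4. The calls of Psma8, Psmb1, Psmb10, Psmc3, Psmd8, Psmd14 and Psme1 were lost under each of the 3 other scalings. Among the called ATPases and assembly factors were Psmc4 (0.68 ± 0.06 SE), Psmc5 (0.66 ± 0.07), Psmg1 (0.66 ± 0.08) and Psmg2 (0.59 ± 0.10), and among the caps Psme3 (0.34 ± 0.06), Psme4 (0.39 ± 0.07) and Psme1 (0.31 ± 0.10).

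Against Control, 5 of the 48 members differed in Released: 2 rose and 3 fell, where 7.03% of all tested genes rose and 5.51% fell. The rises were those of Psme4 and Psmb9. The call of Psmb9 is no test, since it passed the filter on low values through ETO and Released libraries alone. The medians were -0.02 for members and 0.01 for all genes, and the groups did not overlap for 33 members and for 61.7% of all tested genes. The interferon-inducible cap stood lowest: Psme1 had 317 and 278 in Released against 411 and 429.7 in Control (log2 change -0.50 ± 0.10 SE, adjusted p = 0.00376), and the Psme2b row had 213 and 216 in Released against 312 and 349 in Control (log2 change -0.62 ± 0.11 SE, adjusted p = 0.00131). Psme2 had 46.8 and 46.9 in Released and 69.3 and 71.6 in Control and was not called (log2 change -0.58 ± 0.21 SE, adjusted p = 0.0868). Psmc6, an ATPase, had 1857 and 1771 in Released against 2356 and 2339 in Control (log2 change -0.37 ± 0.10 SE, adjusted p = 0.0244). Psme4 had 6437 and 6665 in Released against 5474 and 5569 in Control (log2 change 0.25 ± 0.07 SE, adjusted p = 0.0253). Of these calls, the one for the Psme2b row held whichever library was left out. Those for Psmc6 and Psme4 were lost without any one of the Released and Control libraries, that for Psme1 without Control replicate 2 or Released replicate 2, and in the FPKM table the Psme2b row was the 1 member called.

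Of the immunoproteasome subunits, Psmb8 and Psmb9 were scarce in all groups. Psmb10 was not, with group means between 10.6 FPKM in ETO and 34.3 FPKM in WT. In ETO Psmb10 fell, and Psmb9 had higher values than in Control, where it stood at a few reads. Per length, the 6 constitutive beta subunits other than Psmb5 had FPKM means between 42.1 and 507 in ETO and between 64.0 and 686 in Control. Psmb10, which replaces Psmb7, had 11.3 and 9.98 FPKM in ETO against 25.6 and 16.5 FPKM in Control. Psmb9, which replaces Psmb6, had 2.61 and 4.13 FPKM in ETO against 0.955 and 0.601 FPKM in Control, and Psmb8, which replaces Psmb5, had 0.150 and 0.284 FPKM in ETO and was listed at 0 in Control. Psmb11, the thymus subunit, had 0.988 normalised counts in 1 ETO library and 0 in the other 9.

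Psmb9 was the 1 member that rose in ETO. It had 11.9 and 29.6 normalised counts in ETO and 17.4 and 13.9 in Released, against 4.54 and 2.08 in Control (log2 change 2.26 ± 0.50 SE, adjusted p = 0.00101 for ETO against Control). The ETO libraries lay above both Control libraries and overlapped the Released libraries, and it had 9.42 and 8.63 in KO and 6.15 and 8.29 in WT. Psmb9 passed the filter on low values through ETO and Released libraries alone, so that its call is not a test among all members. Its Control values lie near 3 reads, which correspond to 3.30 and 3.11 normalised counts in these libraries. In Released against Control its change was 2.00 in the normalised counts (adjusted p = 0.0159), with the call lost without Control replicate 2 or either Released library, and 0.31 in the FPKM table (adjusted p = 0.824). Psmb8 had 2.36 and 4.98 normalised counts in ETO and 3.44 and 3.52 in Released and was listed at 0 in KO, WT and Control, where a count of 0 allows up to 3 reads, or 2.78 to 4.04 normalised counts. It did not pass the filter and was not tested.

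**Figure D3:**
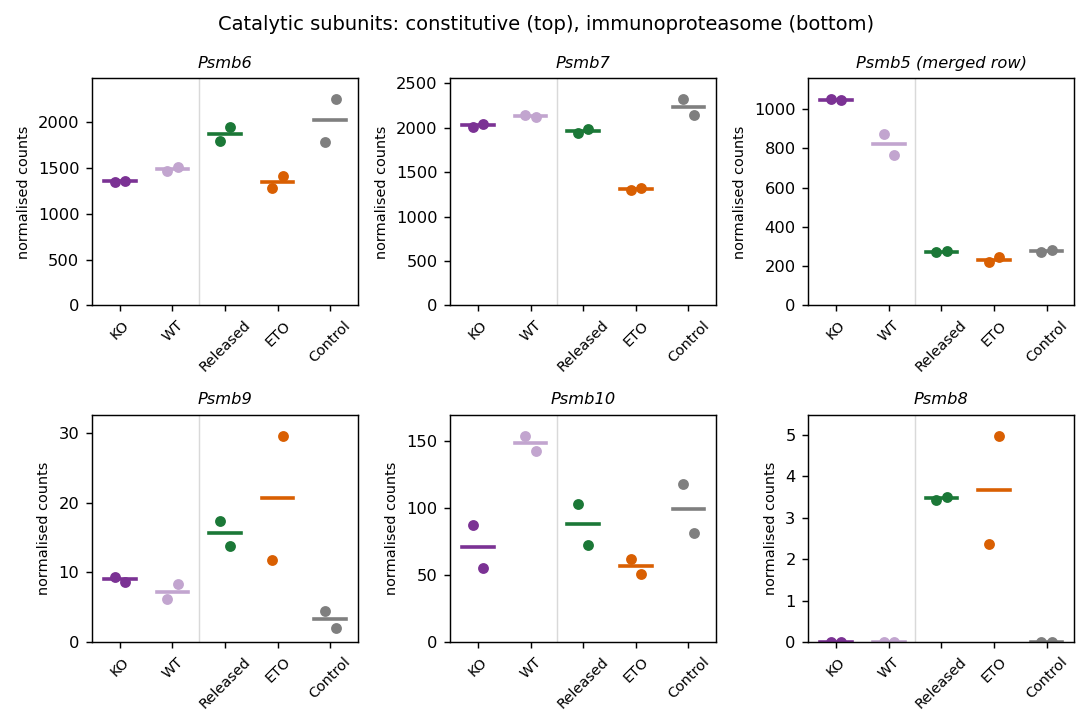
Normalised counts per library (vertical axis, points are libraries, lines are group means) of the constitutive protease subunits Psmb6, Psmb7 and Psmb5 in the upper row and of Psmb9, Psmb10 and Psmb8, which replace them, in the lower row. Psmb6 and Psmb7 lie lower in ETO than in Control, Psmb9 lies higher, and Psmb10 lies lower in KO than in WT.

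Psmb10 had its lowest group means in ETO and KO. It had 62.3 and 50.7 in ETO against 118 and 81.0 in Control (log2 change -0.79 ± 0.25 SE, adjusted p = 0.0118), and the call was lost without Control replicate 1 or ETO replicate 2. Set against Psmb7, the Psmb10 transcript was 10.4% and 9.13% of the Psmb7 FPKM in ETO and 13.1% and 9.17% in Control, a difference of -0.17 in the log2 ratio (two-sided exact permutation test, p = 0.667). With 2 libraries against 2 this exact test cannot go below p = 0.333, so none of the 18 comparisons of this kind can pass. Psmb9 was 1.80% and 2.59% of the Psmb6 FPKM in ETO and 0.469% and 0.235% in Control (difference of 2.70 in the log2 ratio, exact permutation p = 0.333), and the ETO libraries lay above both Control libraries. In Released it was 0.631% and 0.327% of the FPKM, which overlapped Control. In normalised counts it was 0.970% and 0.714% in Released against 0.254% and 0.0923% in Control, without overlap.

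Several genes of antigen presentation rose in ETO. Of 19 genes for class I presentation and interferon response, 11 rose and 2 fell in ETO, with a median of 0.46, where 26.8% of all tested genes rose and 34% fell with a median of -0.09. Tapbp (-0.08), Calr (-0.03), Pdia3 (-0.03) and Canx (-0.01), which help to load peptides, were not called. Tap1, a subunit of the peptide transporter, had 585 and 618 normalised counts in ETO against 35.1 and 46.7 in Control (log2 change 3.86 ± 0.16 SE, adjusted p = 2.25e-11). Its partner Tap2 stood at a few reads, with 3.95 and 5.81 in ETO and 0 in both Control libraries. The class I heavy chain H2-K1 had 245 and 287 in ETO against 37.4 and 48.8 in Control (log2 change 2.61 ± 0.15 SE, adjusted p = 7.21e-10), H2-D1 changed by 2.09 and the light chain B2m by 0.61. The class I activator Nlrc5 had 28.7 and 27.4 in ETO and 0 and 2.08 in Control, and it passed the filter on low values through the ETO and Released libraries alone, so that its call, counted among the 11, is no test. Irf1, a factor known to induce Psmb9 and Tap1, was lower in ETO, with 290.4 and 296 in ETO against 412 and 431 in Control (log2 change -0.52 ± 0.10 SE, adjusted p = 0.000278). Psmb9 (chr17:34181987-34187764, minus strand) and Tap1 (chr17:34187553-34197225, plus strand; GENCODE vM21 on mm10) overlap in the annotation, and in the RefSeq table their starts lie 225 bases apart, head to head. Since the use of strand in counting is not given, reads in the overlap cannot be told apart. In Released, Tap1 (109 and 135, log2 change 1.56 ± 0.16 SE, adjusted p = 1.63e-05 against Control), H2-D1 (1.05) and H2-K1 (0.99) were above Control, and 0 of the 19 genes fell.

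Some markers of immune cells were at or near 0, and others were higher in ETO than in Control. Tyrobp was at 0 in all 10 libraries, and Ptprc and Cd48 were at or below 2.34 normalised counts in every library. The counts for the marker lists stand beside 26.8% of all tested genes that rose in ETO and 34% that fell. Of the 7 haematopoietic markers 3 could be tested and rose in ETO: Cd74 (2.94), Coro1a (2.19) and Laptm5 (0.76), the last of which ES cells expressed at 4025 and 3846 in Control. The summed level of the list was 6708 and 6861 in ETO against 4046 and 3862 in Control. Nearly all of it was Laptm5, with 6614 and 6755 in ETO, so the sum does not describe the other markers. Of 8 fibroblast or feeder markers 3 could be tested and 2 rose in ETO, Col1a1 (1.91) and Fbn1, which had 45.5 and 38.2 in ETO against 5.50 and 8.30 in Control and passed the filter through the ETO libraries alone, with sums of 214 and 206 in ETO against 70.4 and 70.6 in Control, while Col3a1, Dcn and Postn were at or below 3.52 in every library. Of 6 primitive endoderm markers, Gata4 (2.56) and Gata6 (3.23) rose in ETO, with sums of 588 and 566 in ETO against 284 and 262 in Control. Their part in the proteasome values was not tested. Of the ES cell markers, which all fell in ETO, Pou5f1 lay between 4615 and 9164 normalised counts over the 10 libraries, and Utf1 had 93.9 and 103 in ETO against 375 and 355 in Control.

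Nfe2l1, the factor that activates the subunit genes, rose in ETO. Of 14 transcription regulators 9 rose and 4 fell in ETO, where 26.8% of all tested genes rose and 34% fell. Nfe2l1 had 6757 and 6996 in ETO against 3721 and 3749 in Control (log2 change 0.88 ± 0.05 SE, adjusted p = 1.85e-09), and its relative Nfe2l2 (NRF2) had 3627 and 3595 in ETO against 2808 and 2747 in Control (log2 change 0.38 ± 0.06 SE, adjusted p = 9.29e-05). Their partners Mafk (370.5 and 354 in ETO, 57.2 and 51.6 in Control, log2 change 2.72) and Maff (2.65) rose, as did Bach1 (0.94), which competes for the same sites, and Ngly1 (0.78), the glycosidase needed to activate Nfe2l1. Keap1 rose as well (1078 and 1086 in ETO, 828 and 816 in Control). Ddi2, in a row merged with Rsc1a1, was not called (1755 and 1881 in ETO, 2086 and 1818 in Control). The 4 that fell were the NF-Y subunits Nfya (-0.50), Nfyb (-0.47) and Nfyc (-0.82) and Foxo4 (-0.87). In Released against ETO, which shares the ETO libraries, Nfe2l1 stood at -0.79 on the log2 scale, Maff at -2.95 and Nfya at 0.66. In Released against Control 1 of the 14 was called, Mafk (1.03), where 7.03% of all tested genes rose and 5.51% fell.

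**Figure D4:**
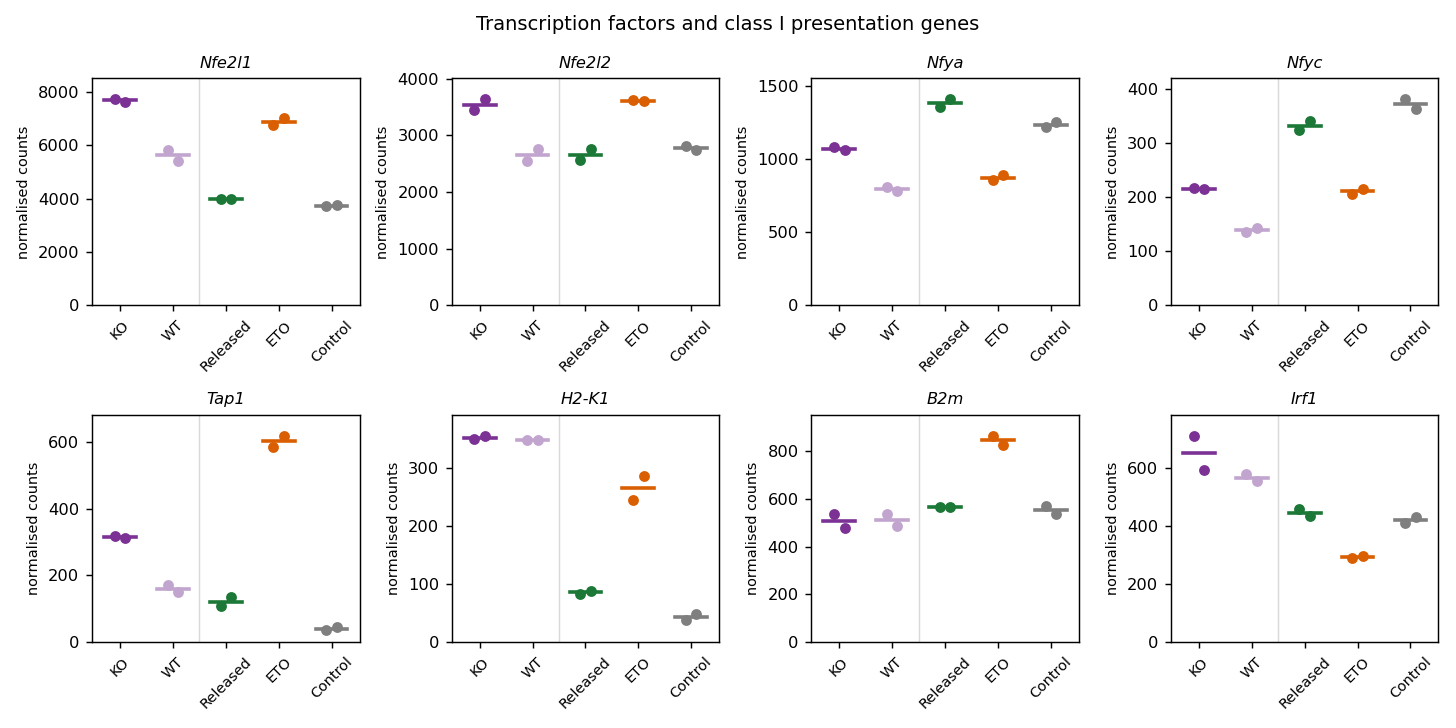
Normalised counts per library (points, with lines at group means) of the factors Nfe2l1, Nfe2l2, Nfya and Nfyc and of Tap1, H2-K1, B2m and Irf1. Nfe2l1 lies at 6757 and 6996 in ETO against 3721 and 3749 in Control, while Nfya and Nfyc are lower in ETO than in Control.

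Among 12 associated factors 3 rose and 4 fell in ETO, shares near those of all tested genes (26.8% and 34%). Pomp, the chaperone that completes the core particle, had 609 and 672 in ETO against 1096 and 1208 in Control (log2 change -0.85 ± 0.08 SE, adjusted p = 2.12e-07), and Sem1, a small lid subunit named outside the rule, changed by -0.56. The ubiquitin receptor Adrm1 was not called (log2 change -0.04 ± 0.12 SE, adjusted p = 0.801). Zfand2a (AIRAP), a proteasome adaptor known from arsenite stress, had 1267 and 1233 in ETO against 392 and 359 in Control (log2 change 1.73 ± 0.10 SE, adjusted p = 6.91e-10), and AI314180, the mouse gene of the proteasome adaptor Ecpas, changed by 0.68. Of 14 genes for ubiquitin supply and activation 12 fell and 1 rose in ETO. Uba1, the main activating enzyme, had 5166 and 5434 in ETO against 9127 and 8978 in Control (log2 change -0.77 ± 0.06 SE, adjusted p = 1.08e-08) and Ube2c, the conjugating enzyme of mitosis, 785 and 795 in ETO against 2565 and 2369 in Control (log2 change -1.64 ± 0.07 SE, adjusted p = 1.94e-11). Of 13 tested shuttle and unfolding factors 4 rose and 5 fell, also near those shares, with Ubxn4 at 0.67 and Ubqln4 at -0.55. In Released against Control, 1 of the 12 associated factors rose (Zfand2a, 0.34, lost without either Control library, either ETO library or Released replicate 2), 1 of the 13 shuttle factors fell (Faf1, -0.32, lost without Control replicate 2 or either Released library) and 0 of the 14 ubiquitin genes were called. Of all tested genes 7.03% rose and 5.51% fell in this comparison.

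In KO against WT some proteasome genes rose and some fell. Kat8, the gene of Mof, had 222 and 205 normalised counts in KO and 433 and 357 in WT (log2 change -0.88 ± 0.11 SE, adjusted p = 3.64e-05). Of 48 members 17 rose and 8 fell, where 24.6% of all tested genes rose and 13.3% fell, with a median of 0.11 for members and 0.08 for all genes. The groups did not overlap for 39 members and for 64.6% of all tested genes. Fitted on the 4 floxed-line libraries alone, 12 members rose and 6 fell (all genes: 2842 and 1541). The calls depended on scaling: 14 rose and 10 fell with median-of-ratios or TMM factors, and 6 rose and 15 fell with total-signal factors, while among all genes the share of rising calls went to 52.3%, 52.3% and 37.0%, against 64.8% as deposited. Of the 17 rises 6 held under all 4 scalings, and so did 8 of the 8 falls. The proteasome genes took 0.637% and 0.640% of all normalised counts in KO, against 0.647% and 0.650% in WT.

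The rises that held under all 4 scalings were those of Psma3, Psma7, Psmc3, Psmc5, Psmd4 and Psme4. Psma3 had 178 and 208 in KO against 122 and 121 in WT (log2 change 0.66 ± 0.14 SE, adjusted p = 0.00216), the largest rise among members. Psma7 had 2942 and 2779 in KO and 2226 and 2130.4 in WT (log2 change 0.39 ± 0.06 SE, adjusted p = 0.000145). The ATPases Psmc3 (2930.2 and 2855 in KO against 2294 and 2280.2 in WT, log2 change 0.34 ± 0.05 SE, adjusted p = 0.000203) and Psmc5 (2867 and 2559 in KO against 1966 and 2150.1 in WT, log2 change 0.40 ± 0.07 SE, adjusted p = 0.000408) were both higher in KO, without overlap. Psmd4 had 2126 and 2191 in KO and 1708 and 1617 in WT (log2 change 0.38 ± 0.06 SE, adjusted p = 0.000266), and Psme4 had 6413 and 7252 in KO and 4978 and 5549 in WT (log2 change 0.38 ± 0.07 SE, adjusted p = 0.000491). Of the ATPases 4 of 6 rose with the deposited values and 0 fell. Other rises depended on the scaling, such as Psmb5 (1051 and 1045 in KO, 874 and 767 in WT, log2 change 0.36 ± 0.10 SE, adjusted p = 0.00867), Psmd8 (0.29 ± 0.06 SE), Psme2 (92.8 and 122 in KO against 59.2 and 77.6 in WT, log2 change 0.64 ± 0.21 SE, adjusted p = 0.0253) and the Psme2b row (0.39). Those of Psme2 and Psme2b were also lost without WT replicate 1 or KO replicate 2, and that of Psmb5 without WT replicate 2. Psmb6 (-0.14), Psmb7 (-0.07), Psmb9 (0.30), Psme1 (0.07) and Psme3 (0.14) were not called.

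The members that fell in KO were Psmb10, Psmd10, Psmg3, Psmf1, Psmd9, Psma8, Psmb2 and Psmd13, among them 3 assembly factors. Psmb10 had the lowest change, with 87.4 and 55.0 in KO against 154 and 142 in WT (log2 change -1.08 ± 0.25 SE, adjusted p = 0.00301), and its FPKM stood at 10.2% and 5.64% of Psmb7 in KO against 20.4% and 17.6% in WT (difference of -1.32 in the log2 ratio, exact permutation p = 0.333, the smallest possible). Psmd10, known as gankyrin, had 149 and 153 in KO and 244 and 233 in WT (log2 change -0.65 ± 0.11 SE, adjusted p = 0.000285). Psmg3, in a row merged with Gm26938 and Tmem184a, had 191 and 183 in KO and 299.9 and 283 in WT (log2 change -0.64 ± 0.11 SE, adjusted p = 0.000375). Psmf1, the inhibitor PI31, had 408 and 412 in KO and 630.2 and 584 in WT (log2 change -0.56 ± 0.09 SE, adjusted p = 0.000311), and Psmd9 changed by -0.48. In each of these 5 genes both KO libraries lay below both WT libraries. Psma8 (-0.40), Psmb2 (-0.24) and Psmd13 (-0.21) each lost the call when a single library was left out: WT replicate 2 or KO replicate 1 for Psma8, WT replicate 1 or KO replicate 2 for Psmb2, and either KO library for Psmd13. Without KO replicate 2, 10 members rose in place of 17. With FPKM values 10 rose and 4 fell, and Psmd4, Psme4, Psmd9, Psma8, Psmb2 and Psmd13 were among those not called there.

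The counts for the lists around the proteasome in KO stand beside 24.6% of all tested genes that rose and 13.3% that fell. Of 14 regulators 9 rose and 1 fell, with Nfe2l1 at 7717 and 7617 in KO against 5810.1 and 5409 in WT (log2 change 0.45 ± 0.05 SE, adjusted p = 1.85e-05), Nfe2l2 at 3443 and 3638 in KO against 2539.5 and 2766 in WT (log2 change 0.42 ± 0.06 SE, adjusted p = 0.000134), Mafg at 0.59, and Nfya at 0.43, a direction opposite to that in ETO. Of 19 class I and interferon genes 6 rose and 4 fell, near the share of all genes for rises: the folding factors of the loading complex Calr (0.74 ± 0.05 SE), Pdia3 (0.64 ± 0.07) and Canx (0.61 ± 0.07) rose, as did Tapbp (0.52 ± 0.08) and Tap1 (318 and 311 in KO against 172 and 149 in WT, log2 change 0.97 ± 0.16 SE, adjusted p = 0.00023), and Irf1 was not called (0.19). Tap2, the partner of Tap1, was lower in KO, with 2.45 and 5.24 against 14.8 and 13.7 in WT. It passed the filter on low values through the WT libraries alone, so that any call of it is no test. Of 14 ubiquitin genes 6 rose and 1 fell, with Rps27a, a ubiquitin fusion gene, at 206 and 219 in KO against 101 and 123 in WT (log2 change 0.92 ± 0.15 SE, adjusted p = 0.000206), Ube2d3 at 0.56 and Usp7 at 0.44. Of 13 shuttle factors 7 rose and 1 fell, with Rad23b at 0.44. Of 12 associated factors 3 rose and 0 fell, a share of rises near that of all genes. Zfand5 was among them (0.45), but its change was 0.02 with FPKM values (adjusted p = 0.942), and Pomp (-0.09) and Adrm1 (0.23) were not called.

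The change in KO and the change in ETO differed for most members. Tested as a difference of the 2 changes in 1 model, 38 of 48 members had a higher change in KO than in ETO and 2 a lower one (limma, Benjamini-Hochberg adjusted p under 0.05), where 32.3% and 22.2% of all tested genes did. With total-signal factors, which lower the median of all genes in this contrast by 0.33, the counts were 27 higher and 5 lower. The members' median lay above that of all genes by 0.48 as deposited and by 0.47 with total-signal factors, a gap that 1 factor per library can hardly move. Of the members 15 rose in KO and fell in ETO, 0 did the opposite, 7 fell in both and 20 fell in ETO and were not called in KO. The shares of all tested genes with these joint patterns were not computed, so the counts do not show whether the patterns are particular to the members. Both calls held under all 4 scalings for 3 of the 15 (Psma3, Psma7 and Psmc5) and for 4 of the 7 (Psma8, Psmb2, Psmb10 and Psmd13). The 3 other scalings lower every change in KO and raise every change in ETO. A fall in KO can thus hardly be lost, and the shares for the 15 and the 7 cannot be compared. The 7 that fell in both were Psma8, Psmb2, Psmb10, Psmd9, Psmd10, Psmd13 and Psmg3. In the normalised counts the largest differences were those of Psme2 (log2 change 1.50 ± 0.30 SE, adjusted p = 0.000554) and Psma3 (log2 change 1.44 ± 0.20 SE, adjusted p = 2.32e-05). With FPKM values the difference of Psme2 was 0.54 (adjusted p = 0.474) and that of Psma3 was 1.03 (adjusted p = 0.0126). In other roles the largest were those of Psmc5 (log2 change 1.07 ± 0.10 SE, adjusted p = 3.17e-07), Psmd7 (log2 change 1.03 ± 0.10 SE, adjusted p = 7.72e-07) and Psmb3 (log2 change 0.74 ± 0.12 SE, adjusted p = 0.000133). The 2 lower ones were Psmf1 (log2 change -0.59 ± 0.13 SE, adjusted p = 0.00164) and Psmb9 (-1.97), whose call is no test, since it passed the filter through ETO and Released libraries alone, and was lost with FPKM values or without WT replicate 2, KO replicate 2, Control replicate 2 or ETO replicate 2. Among assembly factors 2 of 7 differed, Psmg1 (0.62) and Psmg2 (0.46, not passed under the 3 other scalings), and for Psmb10 (log2 change -0.29 ± 0.35 SE, adjusted p = 0.501) no difference passed. The 2 experiments used different lines, agents and days, so that these cannot be told apart in the difference.

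**Figure D5:**
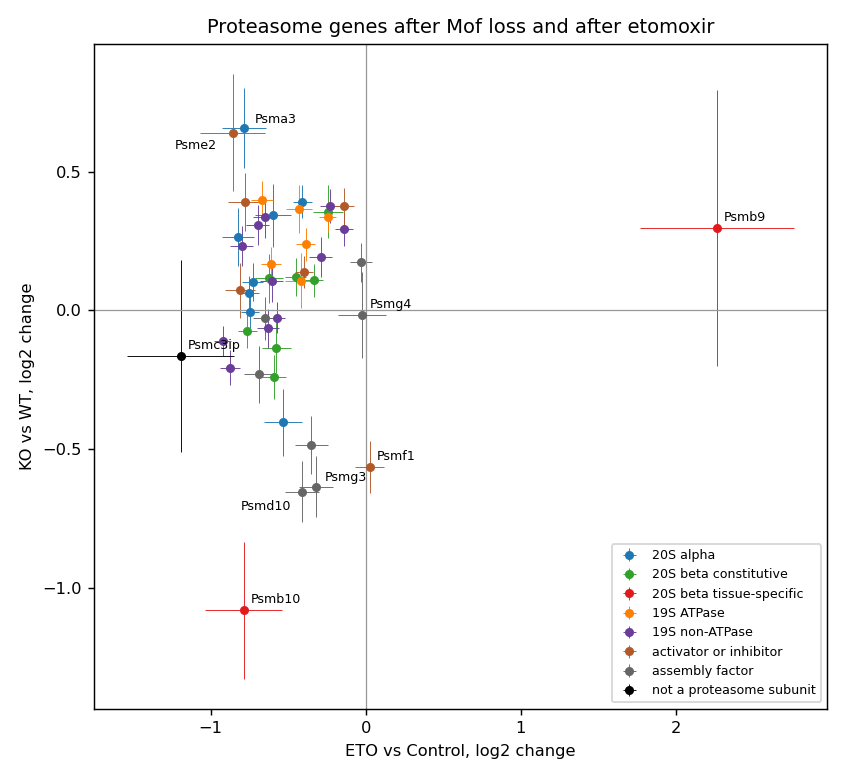
Log2 change in KO against WT (vertical axis) over the log2 change in ETO against Control (horizontal axis) for the 48 tested genes, with standard errors as bars and colours for roles. Most points lie left of 0, Psmb9 stands alone at the right (2.26) and Psmb10 at the bottom (-1.08).

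Levels of the members were also set side by side between the lines, which differ in strain, genotype and experiment, so these values are a description with no test. In 8 of 48 genes all 4 floxed-line libraries lay above all 6 E14tg2a libraries, and in 4 they lay below, which held for 19.4% and 16% of all tested genes. The row of Psmb5 had 1051 and 1045 normalised counts in KO and 874 and 767 in WT, and between 221 and 282 in the E14tg2a libraries. Since the row is merged with Mir686, its FPKM, 1671 to 2594 in the floxed line and 22.2 to 38.3 in E14tg2a, cannot be read per length of Psmb5. Psmg4 had 312 and 268 in KO and 308 and 278 in WT, against 113 to 154 in E14tg2a. Psmc4 had 1944 and 1830.0 in KO and 1729 and 1635 in WT, against 3148 and 3027 in Control, and Psmd6 had 914 and 920.2 in KO and 908 and 1012 in WT against 1757 and 1682 in Control. For the median member, WT lay 0.18 below Control on the log2 scale.

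Per length and within a library, subunits of the particle differed widely in level although they are built in at equal numbers. In Control the highest FPKM means were those of Psma6 (863), Psmb4 (686) and Psmc3 (471), and the lowest among ubiquitous subunits was that of Psma3 (9.99). The FPKM of Psma3 is uncertain: its mean was 10.3 FPKM in WT, near that of Control, with means of 121 normalised counts in WT and 221 in Control. Assembly factors had a median of 24.9 FPKM in ETO and 40.1 FPKM in Control, and 19S non-ATPase subunits a median of 96.4 FPKM in ETO and 154 FPKM in Control. Psma6 is the sum of 4 rows of the same name and Psma4 and Psmd5 of 2 rows each, which makes their FPKM less certain.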

How the data were processed

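RNA-seq of mouse ES cells (TruSeq, total RNA, single-end) was deposited in 10 libraries, 2 in each of 5 groups. The submitters' processing notes name TopHat2 2.1.1, SAMtools 1.5 and deepTools with mm10; the program behind the gene table and its use of strand are not given in the sources used here. The deposited gene count table holds normalised counts, a signal in which reads were divided by 1 factor per library: 88.8% to 90.5% of values under 20 lay within 0.1 of whole reads. The authors' second table holds FPKM. Count models were not used, since the values are not whole counts. Totals were 10562067 to 13326172 normalised counts, about 9783249 to 16779174 reads; intervals and floors cover counting error only. Nothing beyond the design text shows that duplicates came from separate cultures, so p-values measure the spread between these libraries.

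Rows of the same name were summed, and 2 mitochondrial rows were left out of tests. Genes with at least 10 in at least 2 libraries (16056) were fitted with limma 3.58.1 in R 4.3.3 on log2(normalised count + 1), 1 mean per group over all 10 libraries, with trended and robust variance and Benjamini-Hochberg adjustment. A fold change on this scale understates that of low genes. The fit was tested on simulated data. All 50 members matched GENCODE vM21; 48 passed the filter. Named genes were the 6 catalytic subunits, the caps and Psmf1, per comparison and role the 2 members with the smallest adjusted p and the one with the largest change, up to 4 genes of each pathway list by adjusted p, and Nfe2l1, Nfe2l2, Pomp, Adrm1, Tap1 and Irf1; others were chosen after their values were seen, and some genes of these lists are not reported here. Members and lists were chosen with earlier results of these data known. Alternatives were other pseudocounts, filters, scalings, the FPKM table, fits per experiment or with a replicate block, merged rows left out, and each library left out.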

Additional observations from a re-analysis of the deposited data

Results flagged for a closer look

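The change in KO and the change in ETO differed for 38 members in the higher direction and for 2 in the lower direction, by the test of the difference itself (limma, Benjamini-Hochberg adjusted p under 0.05). The difference of log2 changes, KO minus ETO, is given for the 15 members that rose in KO and fell in ETO and for the 2 lower ones. In the normalised counts it was largest for Psme2 (1.50), where FPKM values gave 0.54 (adjusted p = 0.474), and Psma3 (1.44), where they gave 1.03. Psme2b stood at 1.17, Psmc5 at 1.07, Psmd7 at 1.03 and Psmd12 at 1.01. Psmd11 had a difference of 0.99, Psma5 of 0.94, and Psma7 and Psmc1 of 0.80 each. Psmc2 differed by 0.63, Psmd4 by 0.61, Psmb5 by 0.60, Psmc3 by 0.58 and Psmd14 by 0.48. The lower differences were those of Psmb9 (-1.97), which passed the filter on low values through ETO and Released libraries alone, and Psmf1 (-0.59). The cell line, the agent and the day of collection cannot be told apart from these differences.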

How the results depend on the processing

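Of the member calls, 31 of 43 in ETO against Control, 30 of 39 in Released against ETO, 8 of 25 in KO against WT, 1 of 5 in Released against Control and 27 of 40 in the difference of changes held under every alternative run, of which 2 (the row of largest value for a repeated name, and pseudogene rows added) were chosen after seeing the data; 0 called members changed sign. A sign change of a gene called in neither fit was not counted.

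With total-signal factors, 6 members rose and 15 fell in KO against WT (all genes: 2172 and 3696), 5 members had a lower change in KO than in ETO, and over all genes 3072 were higher and 5493 lower in that difference, while the difference for Nfe2l2 reversed to -0.30. With median-of-ratios and with TMM factors 4 members were lower in it. With FPKM values 10 members rose and 4 fell in KO against WT (all genes: 1996 and 963), 1 fell in Released against ETO, 0 rose and 1 fell in Released against Control (all genes: 218 and 130), and 1 was lower in the difference. Without a filter on low values, 2 members rose in ETO. In fits per experiment 4 members rose and 6 fell in Released against Control (all genes: 2012 and 1650), and 12 rose and 6 fell in KO against WT (all genes: 2842 and 1541). With normalised counts in place of FPKM, the log2 ratio of Psmb9 to Psmb6 differed by -0.74 between Released and ETO and by 2.44 between Released and Control. The causes were not tested, except that the scalings shift the median of all genes by their construction.

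Leaving out 1 library at a time, 10 to 19 members rose and 6 to 8 fell in KO against WT, 1 rose and 37 to 43 fell in ETO against Control, 33 to 40 rose and 0 fell in Released against ETO, 0 to 2 rose and 1 to 5 fell in Released against Control (all genes: 454 to 1526 and 280 to 1339), and 36 to 39 were higher and 1 to 2 lower in the difference. Over all genes, 2947 to 3892 rose and 1688 to 2070 fell in KO against WT. Where this leaves 1 library in a group, it is assumed to vary like the others. The replicate numbers did not pair the libraries: same-numbered deviations correlated at 0.0812 for KO and WT, -0.0146 for ETO and Control, -0.015 for Released and ETO and 0.0376 for Released and Control. A replicate block lost 0 member calls and gave 21 rising and 8 falling in KO against WT, 1 and 44 in ETO against Control, 40 and 0 in Released against ETO, and 3 and 6 in Released against Control, with 1483 genes falling there in all. Depth limits Psmb8, Psmb11 and the Control values of Psmb9, which were a few reads.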
